A study of Homo sapiens with 9 samples.

Results

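HAP1 is a near-haploid, adherent human cell line that descends from a chronic myeloid leukaemia line, and the data described here are its steady-state RNA levels in the 2 libraries made from 1000 sorted cells each, out of 9 libraries in the series. They were chosen by their label alone, all cells were wild type and untreated, and no other cell number was compared with them. The cells grew in IMDM with fetal bovine serum and were sorted by flow cytometry into lysis buffer. Total RNA was bound to NAxtra magnetic beads, treated with DNase and made into strand-specific SMART-Seq libraries. Both libraries come from 1 cell line under 1 condition, so the values describe this culture and not HAP1 clones in general. The labels call the samples biological replicates. Since there is only 1 group, no test was possible, and each level is given for replicate 1 first and replicate 2 second.

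A growing human cell spends much of its RNA on the machinery of growth: ribosomes, histones, chaperones, splicing factors and energy enzymes. Which specialised cell it resembles is set by a much smaller group of regulators, such as SOX2 and POU5F1 of the pluripotent embryo or GATA1 and SPI1 of blood, and by which copy of a gene family (paralog) is switched on. HAP1 is known as an unusual case, because it came from blood but grows attached and is used as a general laboratory line for gene knockout.

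Levels are given as counts per 1000000 counts of the library (CPM) and, wherever genes are compared with each other, as CPM per kilobase of exon on the gene's primary chromosome. The files hold 26485 gene models, of which 19007 matched a RefSeq protein-coding gene. A gene model was called expressed when it reached 1 CPM per kilobase or more in both libraries. Of all gene models, 12369 were expressed (46.7%), and of protein-coding gene models 10973 (57.7%). The median of the expressed protein-coding gene models was 11 CPM per kilobase with quartiles of 5.08 and 24.6, and 524 gene models reached 100 in both libraries. At the other end, 3568 protein-coding gene models (18.8%) had 0 counts in both libraries, and 4466 lay in between. A count of 0 in a library allows up to 3 counts, which is 0.0700 CPM in replicate 1 and 0.0487 CPM in replicate 2, for counting error only.

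**Figure D1:**
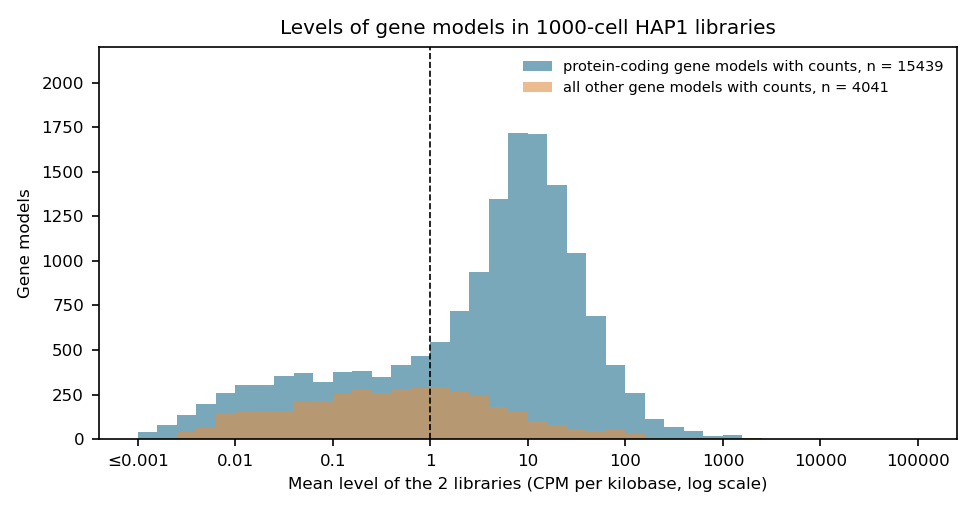
Histogram of the mean level of the 2 libraries (CPM per kilobase, log scale, x axis) against the number of gene models (y axis), for the 15439 protein-coding and 4041 other gene models with at least 1 count; the dashed line marks 1 CPM per kilobase. Protein-coding gene models form a main peak near 10 CPM per kilobase with a low tail to its left, and the other gene models form no such peak.

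Total counts were 42842970 and 61645865. The files of the 2 libraries held different counts. Of expressed gene models, 92.8% lay within 1.25-fold of each other, and the median absolute log2 ratio went from 0.10 for protein-coding gene models at 1 to 10 CPM per kilobase to 0.05 at 10 to 100 and 0.03 at 100 to 1000. In all, 78 expressed gene models were over 2-fold apart. Among those with at least 1 CPM in both libraries, U2AF1 had the widest gap of a protein-coding gene. This small subunit of a splicing factor had 2.60 and 10.8 CPM per kilobase. Of its 50-base stretches, 94.3% also occur at another locus, and the counting set aside reads that map to several places. Its length sums exons from base 6484623 to base 43107578 of chromosome 21, so its level per kilobase is uncertain.

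Ribosomal proteins and histones were the most frequent among the highest protein-coding gene models. Among the 100 protein-coding gene models with the highest CPM per kilobase, 48 were cytosolic ribosomal proteins and 18 replication-dependent histones, 5 were glycolytic, 3 were translation factors, and 11 were on none of the lists, among them the actins ACTB and ACTG1. The histone HIST1H2BC, with 1728 and 1544 CPM per kilobase, had no RefSeq match and was not ranked here. The highest ranked was RPLP1, an acidic protein of the ribosomal stalk, at 2658 and 2728 CPM per kilobase. ACTB, cytoplasmic beta-actin, followed with 2506 and 2520, and RPLP2, the partner of RPLP1 in the stalk, with 2153 and 2175. The order of these genes was the same in both libraries. ACTB is also 1 of 3 transcripts that the study amplified by PCR; the other two lay far lower, with 23.5 and 21.7 CPM per kilobase for TBP, the TATA-binding protein, and 10.6 and 10.9 for TBX5, a T-box regulator of heart and forelimb.

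Cytosolic ribosomal proteins took 13.8% and 14.1% of the summed CPM per kilobase of all protein-coding gene models and 3.93% and 4.02% of all counts. Of their 87 gene models 85 were expressed (97.7%, against 57.7% of all protein-coding gene models). At 100 CPM per kilobase or more lay 69 of them, against 524 of all 19007 protein-coding gene models. The list's median was 409 and 430. The low members included genes that lose reads: RPL17 shares 59.7% of its exon bases with a read-through model on the same strand and stood at 753 and 1263 counts. Paralogs of ribosomal proteins were unequal. RPL3, a core protein of the large subunit, had 1076 and 1091 CPM per kilobase, whereas its muscle paralog RPL3L had 0.107 and 0.127. RPL22 and its paralog RPL22L1 lay close together, with 76.5 and 93.0 against 70.9 and 74.9.

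Replication-dependent histones are made in S phase and mostly lack a poly(A) tail. They had the next highest share, 6.99% and 6.38% of the protein-coding CPM per kilobase. Each such share divides the sum over a whole list by the sum over gene models matched as protein-coding. A list member without a RefSeq match would enter only the first sum. Histone gene models are short, and by counts they held only 1.25% and 1.14%, below the 2.24% and 2.25% of SR proteins and hnRNPs. Of 71 gene models 48 were expressed (67.6%, against 57.7% of all protein-coding gene models), and 12 had 0 counts (against 18.8%). At 100 or more lay 37, against 524 of all 19007 protein-coding gene models. Of the 71, 14 are likely to lose reads, since over 50% of their exon bases or 50-base stretches are shared. Low levels of these are uncertain. The linker histone HIST1H1E led with 2060 and 1862 CPM per kilobase, followed by the linker histone HIST1H1C with 1934 and 1766 and the core histone HIST1H3B with 1725 and 1593. Replicate 1 was the higher one for each of these 3, and the median log2 ratio of replicate 1 to replicate 2 over the expressed histones was 0.13, against -0.03 for ribosomal proteins and 0.11 for short structured RNAs. The part of library preparation in this shift was not tested. The linker histone outside the histone clusters was H1FX at 78.4 and 79.0, while H1F0, the linker histone of resting and differentiated cells, had 0 counts in both libraries, although none of its exon bases lie in another model.

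RNAs that never become protein took a large share of the pool per length. Short structured RNAs held 4.06% and 3.93% of the counts but 29% and 28.2% of the CPM per kilobase over all gene models. Of these RNAs, 5 alone held 25% and 24.6% of the CPM per kilobase over all gene models: RN7SL1 and RN7SL2, the RNA of the signal recognition particle, RN7SK, which restrains transcription elongation, and RPPH1 and RMRP, the RNAs of RNase P and RNase MRP. RN7SL1 alone stood at 75995 and 73076 CPM per kilobase. MALAT1, a long RNA of nuclear speckles, had 2036 and 1942 CPM per kilobase and NEAT1, the scaffold RNA of paraspeckles, 142 and 131. Of 876 long intergenic RNAs named LINC, 71 were expressed (8.11%, against 46.7% of all gene models). In both libraries 500 of them had 0 counts, against 7005 of all 26485 gene models. RN7SL1 and RN7SK share most of their 50-base stretches with other loci (84.4% and 77.1%), so their levels leave out an unknown number of reads.

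**Figure D2:**
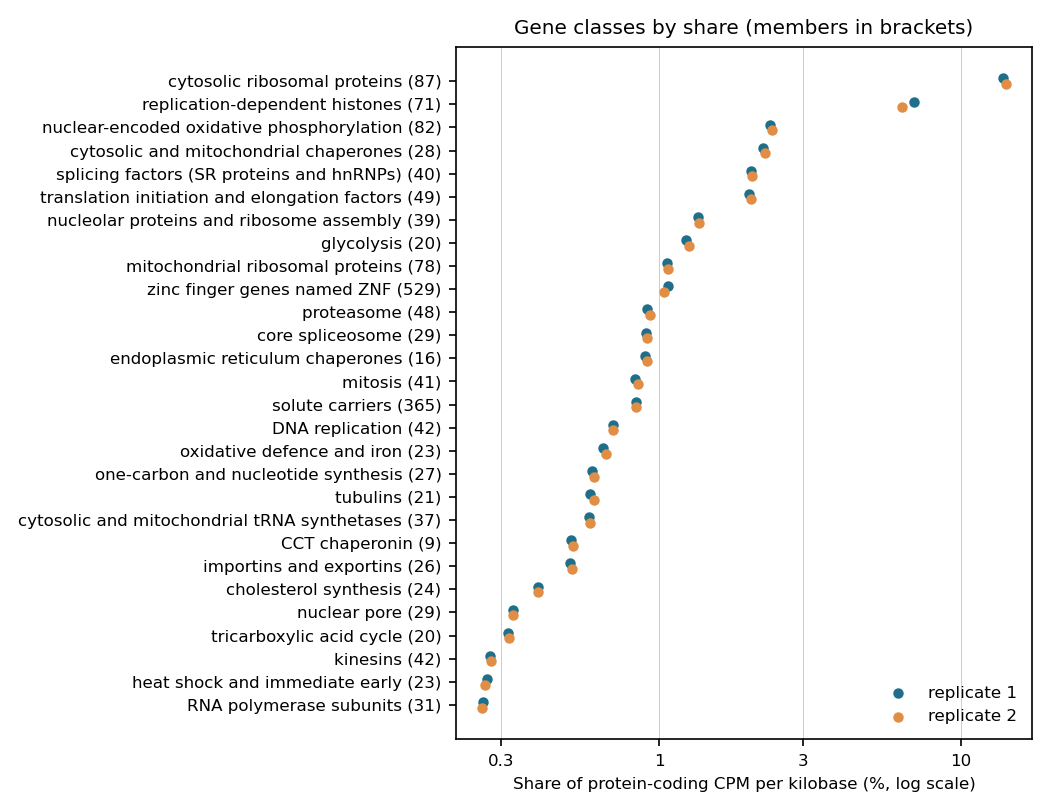
Summed CPM per kilobase of the protein-coding gene classes with the highest shares, as a percent of the sum over gene models matched as protein-coding (x axis, log scale). Points are for replicate 1 and replicate 2 of the 1000-cell libraries, with the number of members in brackets. Cytosolic ribosomal proteins took 13.8% and 14.1% and histones 6.99% and 6.38%, and the points of the 2 libraries lie close together for the other classes drawn.

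Protein folding, splicing and translation factors held shares close to each other. The 28 cytosolic and mitochondrial chaperones were all expressed, against 57.7% of all protein-coding gene models, and took 2.21% and 2.25% of the protein-coding pool. HSP90AB1, the constitutive cytosolic HSP90, had 1344 and 1381 CPM per kilobase and HSPA8, the constitutive HSP70, 1160 and 1190, whereas the strictly inducible HSPA6 stood at 0.0297 and 0.0413. All 40 SR proteins and hnRNPs were also expressed (against the same 57.7%), with a median of 122.7 and 125.3 and 2.02% and 2.03% of the pool. The 49 translation factors held 1.99% and 2.01%. Of the 9 gene models of the CCT chaperonin, which folds actin and tubulin, 8 lay at 100 or more. Of all 19007 protein-coding gene models, 524 did. The nucleolar protein NCL, which acts in ribosome assembly, had 1374 and 1361.

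Glycolytic, respiratory and biosynthetic genes were expressed nearly throughout, against 57.7% of all protein-coding gene models. Nuclear-encoded subunits of oxidative phosphorylation held 2.33% and 2.36% of the protein-coding pool, with 76 of 82 expressed, and glycolytic genes held 1.23% and 1.26%, with 19 of 20 expressed. GAPDH had 963 and 996 CPM per kilobase, PKM 646 and 664, and ENO1 494 and 510. All 20 gene models of the tricarboxylic acid cycle and all 7 of the pentose phosphate pathway were expressed. In the synthesis of nucleotides and lipids, 26 of 27 one-carbon and nucleotide genes, 24 of 24 cholesterol genes and 12 of 12 fatty acid genes were expressed. IMPDH2, the enzyme that commits purines to guanine nucleotides, had 183 and 186, SCD, which makes unsaturated fatty acids, 226 and 231, and FDPS of the mevalonate pathway 170 and 167.

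Genes of proliferation were expressed without exception on the lists used. All 42 genes of DNA replication and all 41 of mitosis passed, against 57.7% of all protein-coding gene models, and 41 and 40 of them reached 10 CPM per kilobase, against 30.2%. The lists had medians of 44.4 and 43.1 CPM per kilobase for replication and 56.1 and 56.3 for mitosis. MCM3 of the replicative helicase had 148 and 144, PCNA, the sliding clamp, 138 and 138, MKI67, the proliferation antigen, 149 and 150, and PLK1, the mitotic kinase, 131 and 136. Brakes on the cycle were uneven. CDKN1B (p27) had 30.2 and 28.3 and CDKN2A 25.5 and 26.9, whereas CDKN1A (p21) had only 1.14 and 1.06.

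The share of expressed genes lay above the 57.7% of all protein-coding gene models on the stress lists and below it on the immune lists. Of heat shock and immediate early genes 19 of 23 were expressed (82.6%) and of hypoxia genes 15 of 19 (78.9%). The integrated stress response list was expressed in full (18 of 18), with a median of 13.3 and 12.2 CPM per kilobase, led by its regulator ATF4 at 224 and 215 CPM per kilobase and the serine synthesis enzyme PHGDH at 143 and 150. Of 24 interferon-stimulated genes 11 were expressed (45.8%), and of 19 genes of antigen presentation 9 (47.4%). BST2 (tetherin), which holds budding viruses at the membrane, stood out with 75.3 and 78.4, while the signal carrier STAT2 had 12.4 and 12.5, and OAS1, MX2 and IFI44L had 0 counts. In antigen presentation, B2M, the light chain of class I molecules, had 157 and 164 and HLA-B 65.6 and 62.3, whereas the class II genes HLA-DRA, HLA-DPA1 and CD74 and their activator CIITA had 0 counts. The models of HLA-B and HLA-DRA have copies on 6 and 8 contigs, and reads that map to several copies were not counted.

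Several gene families of specialised cells had no member that passed the threshold in both libraries. Single members had counts, and the olfactory receptor OR2W3 had a mean of 1.36 CPM per kilobase without reaching 1 in both. None of 379 olfactory receptors, 93 keratin-associated proteins, 38 beta defensins, 18 late cornified envelope proteins and 17 type I interferons was expressed, and 351 of the olfactory receptors had 0 counts in both libraries, against 18.8% of all protein-coding gene models at 0. The bitter taste receptors differed from these, with 11 of 25 expressed. TAS2R30 had the highest level, 9.04 and 8.31 CPM per kilobase, and TAS2R16 and TAS2R38 had 0 counts. Of other families, 24 of 39 HOX genes (61.5%) and 186 of 365 solute carriers (51.0%) were expressed, near the 57.7% of all protein-coding gene models. ZNF genes lay above that share with 405 of 529 (76.6%), and collagens with 14 of 44 (31.8%) and clustered protocadherins with 5 of 53 (9.43%) below it. Among the protocadherins, 11 are likely to lose reads, since over 50% of their exon bases or 50-base stretches are shared. The same holds for 14 of the beta defensins and 32 of the olfactory receptors, so low levels of these are uncertain. Of the HOX genes, HOXA7 (26.8 and 25.9), HOXA13 (15.0 and 13.7) and HOXD13 (13.7 and 14.2), from the middle and the posterior end of their clusters, were the highest. Of the collagens, COL2A1, the chain of cartilage, was the highest with 87.1 and 86.9, far above the fibroblast chain COL1A1 with 2.12 and 2.21. Of 29 imprinted genes 13 were expressed (44.8%, near the 46.7% of all gene models), and 3 are likely to lose reads. PEG10, a retrotransposon-derived gene of the placenta, had 494 and 503 and GNAS 131 and 135. In contrast, IGF2 had 0.00727 and 0.0379, H19 0.0899 and 0.0562, and NDN and PEG3 0 counts.

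Regulators of cell lineage were chosen as 203 gene models in 11 lists. Of these, 76 were expressed (37.4%, against 57.7% of protein-coding gene models), 16 reached 10 CPM per kilobase (7.88%, against 30.2%), 2 reached 100, and 43 had 0 counts (21.2%, against 18.8%). Their median was 0.365 CPM per kilobase, against 3.04 over all protein-coding gene models. The lists were drawn up with earlier results of these data known, so the counts describe the lists only.

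The highest single levels were on the pluripotency list, whose median of 1.96 and 1.70 CPM per kilobase was nevertheless below the 1.98 and 2.09 of the neural list. SOX2, a core factor of embryonic stem cells and neural progenitors, had 316 and 304 CPM per kilobase (34061 and 47149 counts). POU5F1 (OCT4), its partner on DNA, had 152 and 152. These were the only lineage regulators over 100. DPPA4, a chromatin factor of the early embryo, followed with 51.0 and 51.2, and LIN28B, the RNA-binding repressor of let-7 processing, with 38.6 and 38.1. KLF4 had 13.2 and 12.9 and DNMT3B, a de novo DNA methyltransferase, 7.24 and 7.86. Altogether 13 of 22 were expressed (59.1%, against 57.7% of all protein-coding gene models). Of those not yet named, LIN28A had 7.70 and 5.59, and the others ran from 1.14 and 1.33 for TDGF1 to 2.52 and 2.47 for ZFP42.

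The rest of the same list was near zero. NANOG, the third core factor of embryonic stem cells, had 10 and 12 counts (0.111 and 0.0926 CPM per kilobase), SALL4 0.449 and 0.293, and L1TD1, a stem cell RNA-binding protein, 0.117 and 0.0610. PRDM14 and ESRRB had at most 4 counts in a library, and KLF17 and ZSCAN10 had none. The level of POU5F1 has its own limits. Of its 50-base stretches, 31.6% also occur elsewhere, its processed pseudogene POU5F1P3 received 2670 and 3898 counts that cannot be told apart with certainty from its own, and the length column of the files sums copies of the gene on alternate contigs, with which the level would be 0.142 of the one given.

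**Figure D3:**
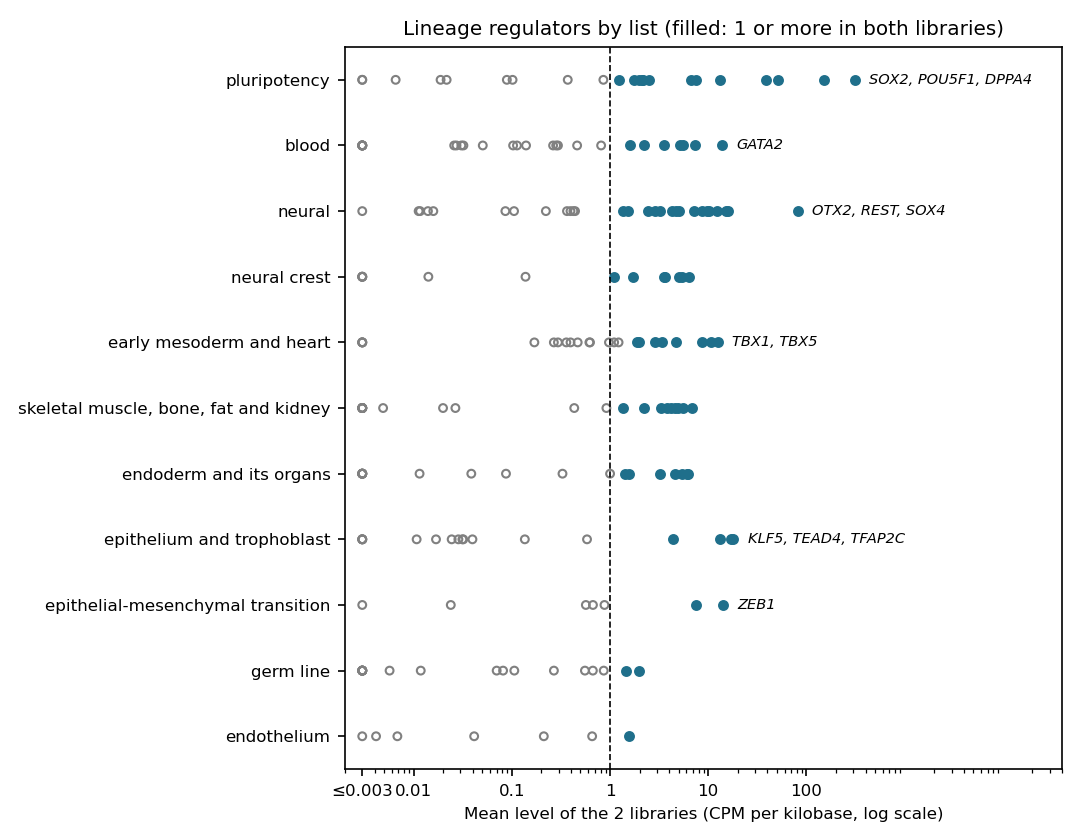
Mean level of the 2 libraries (CPM per kilobase, log scale, x axis) of 203 lineage regulators in 11 lists (y axis); filled points reached 1 in both libraries, open points did not, points at the left edge are at 0.003 or below, and names are given for up to 3 members of a list that reached 10 in both libraries. SOX2 and POU5F1 lie farthest to the right, followed by OTX2 and DPPA4.

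Of neural regulators 16 of 28 were expressed (57.1%, a share close to the 57.7% of all protein-coding gene models), and none had 0 counts in both libraries. OTX2, which specifies forebrain and midbrain and is also found in the early embryo, was highest with 80.5 and 83.0 CPM per kilobase. REST, the repressor of neuronal genes, had 16.1 and 15.6, SOX4 15.4 and 14.8, SIX3 of the forebrain and eye 12.6 and 12, and the proneural factor NEUROG2 9.90 and 10.3. PAX6, a main regulator of cortex and eye, had only 0.303 and 0.426. Among products of mature neurons the picture was different. Of 11 neuron markers 2 were expressed, TUBB3 at 73.4 and 72.2 and MAP2 at 2.46 and 2.38, and STMN2 and ELAVL4 had 0 counts.

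The line descends from blood, and several defining blood regulators were not detected. Of 27 blood regulators 7 were expressed (25.9%, against 57.7% of all protein-coding gene models), 13 were below the threshold and 7 had 0 counts. GATA2 of stem and progenitor cells led with 14.4 and 13.3 CPM per kilobase, followed by the lymphoid factors TCF7 (7.01 and 7.63) and GATA3 (5.24 and 5.87). BCL11A had 5.2 and 5.16, MYB of blood progenitors 3.12 and 3.90, RUNX1 of blood stem cells 2.17 and 2.27, and CEBPA of myeloid cells 1.39 and 1.79. GATA1 of red cells and megakaryocytes, SPI1 (PU.1) of myeloid and B cells, LMO2, NFE2 and ERG had 0 counts in both libraries. Of 25 blood cell markers only EPOR, the erythropoietin receptor, was expressed, with 1.89 and 1.74. PTPRC (CD45), present on nearly all nucleated blood cells, had 0 counts, as had MPO, ELANE, CD3E and HBB. ABL1 and BCR, joined by the translocation of chronic myeloid leukaemia, had 2.04 and 2.34 and 2.99 and 3.20.

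Mesoderm, endoderm and epithelial regulators were expressed in part and at low levels. Against 57.7% of all protein-coding gene models, the expressed share was near that value in neural crest (53.8%). It was lower in muscle, bone, fat and kidney (42.9%), endoderm (36.8%) and early mesoderm and heart (34.8%). The lowest shares were those of epithelium and trophoblast (23.5%), endothelium (14.3%) and germ line (10.5%). In the list of early mesoderm and heart, 8 of 23 were expressed, TBX1 (12.3 and 12.7) and TBX5 highest, while T (brachyury), NKX2-5 and HAND1 had 0 counts. MESP1 and TBX18 passed in replicate 1 only and ISL1 in replicate 2 only. In the list of muscle, bone, fat and kidney, 9 of 21 were expressed, PPARG (5.15 and 5.87) among them, and the muscle factors MYF5, MYF6 and MYOG had 0 counts. In endoderm, 7 of 19 were expressed, led by HHEX and FOXA1 (6.41 and 5.89, 6.44 and 5.64, an order that the libraries did not share), and SOX17, FOXA2 and PDX1 had 0 counts. In neural crest, 7 of 13 were expressed, led by TWIST1 (6.37 and 6.40), and SOX9 and SOX10 had 0 counts. Among the regulators of epithelium and trophoblast KLF5 (18.3 and 17.5), TEAD4 (16.6 and 17.8), TFAP2C (13 and 13.3) and GRHL1 (4.14 and 4.55) were expressed, 4 of 17; KLF5 and TEAD4 lay within the spread of the libraries, and GRHL2 and ELF5 had 0 counts. Of germ line regulators 2 of 19 were expressed and of endothelial ones 1 of 7.

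Some genes typical of mesenchymal cells and some typical of epithelial cells were expressed, but most members of the lists were not. Of 7 regulators of the transition between epithelial and mesenchymal cells 2 were expressed (28.6%, against 57.7% of all protein-coding gene models). TWIST1 was counted with neural crest and not here. Of 9 epithelium markers 2 were expressed (22.2%), and 4 had 0 counts. ZEB1 and ZEB2, repressors of E-cadherin, had 13.4 and 14.6 and 7.47 and 7.70 CPM per kilobase. CDH1, E-cadherin itself, had 0.0145 and 0.0505, while CDH6 (37.3 and 36.2) and CDH2, N-cadherin (33.5 and 32.7), made up nearly all classical cadherin RNA. VIM, vimentin, had 341 and 349. Alongside these, KRT18 and KRT8, the keratin pair of simple epithelia, were expressed at 19.1 and 20.0 and 3.92 and 3.69, and of the 10 fibroblast markers PDGFRA (17 and 17.3) and COL1A1 were expressed but DCN, LUM and FAP had 0 counts. No marker of muscle (0 of 7) or liver (0 of 6) passed. Of 21 cancer-testis antigens 3 passed, MAGED1 (78.0 and 75.9) and MAGED2, which many tissues express, and PRAME (10.0 and 9.73). On this list 12 had 0 counts, and 4 are likely to lose reads, so low levels of those 4 are uncertain.

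Paralog choice was examined in 152 gene families with 731 members, of which 473 were expressed and 75 had 0 counts. Of all 19007 protein-coding gene models, 10973 were expressed (57.7%) and 3568 had 0 counts (18.8%). In 150 families at least 1 member was expressed; the ESRP splicing factors of epithelia and the Hedgehog ligands had none. In 47 families 1 member held 75% or more of the family's summed CPM per kilobase in both libraries, in 13 it was the only expressed one, and in 42 the highest member stayed under 50%. In 56 families every member was expressed. The order of the expressed members was the same in both libraries for 133 of 150 families. These include the 13 families with only 1 expressed member, in which the order could not differ.

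Several metabolic families were served almost entirely by the ubiquitous member. PKM held 100.0% and 100.0% of pyruvate kinase against PKLR of liver and red cells, PGK1 as much against the testis form PGK2, ALDOA 97.8% and 98.0% of aldolase, and ENO1 87.7% and 87.9% of enolase. SLC16A1 held 91.5% and 91.9% of the monocarboxylate transporters. Lactate dehydrogenase was an exception in its balance: LDHB, the heart-type subunit, was above LDHA, the muscle-type subunit, with 482 and 515 against 255 and 265 CPM per kilobase. Among the creatine kinases CKB, the brain form, was the highest with 130 and 134. CKMT1A and CKMT1B of this family are likely to lose reads, so the lead of CKB over them is uncertain. Hexokinase was divided between HK1 (31.8 and 31.4) and HK2 (18.4 and 18.6), and the glucose transporters were led by SLC2A1 at only 13.2 and 14.7.

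Families of growth control ranged from 1 dominant member to an even division. MYC held 98.7% and 98.7% of its family, with 331 and 328 CPM per kilobase against 2.27 and 2.01 for MYCN and 2.15 and 2.40 for MYCL, whose order differed between the libraries. HIF1A held 99.6% and 99.3% of the hypoxia-inducible factors. CDK4 was above CDK6 (76.3 and 78.6 against 13.4 and 13.2), and CCND2 (29.1 and 29.5) above CCND3 (11.4 and 11.1) and CCND1 (2.14 and 2.24). No member was dominant among the E2F factors (E2F4 33.1% and 32.1%), the cyclins B (CCNB1 56.2% and 58.4%) and E (CCNE1 66.4% and 60.0%) or the retinoblastoma proteins (RB1 52.5% and 50.5%). The importin KPNA2, with 299 and 314, held 77.8% and 78.5% of the importin alpha RNA. LIN28B held 83.4% and 87.2% against LIN28A, HMGA1 86.5% and 86.7% against HMGA2, while the 3 IGF2 mRNA-binding proteins were all expressed, IGF2BP1 highest with 76.4 and 76.3. NR3C1, the glucocorticoid receptor of most cell types, had only 0.141 and 0.206.

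Chromatin families differed in the same way. SMARCA4 (BRG1) held 96.1% and 95.9% of the SWI/SNF ATPases, with 151 and 148 CPM per kilobase against 6.08 and 6.33 for SMARCA2. EZH2 held 86.9% and 88.0% against EZH1, DNMT1, the maintenance methyltransferase, 86.8% and 86.8% of its family, and ARID1A 76.7% and 77.5% against ARID1B. H2AFZ held 90.3% and 89.9% of H2A.Z. In contrast, HDAC1 held 39.3% and 38.8% of the class I deacetylases, CBX2 37.4% and 38.1% of the Polycomb CBX proteins, CBX3 51.3% and 51.5% of heterochromatin protein 1, BRD2 46.4% and 46.8% of the BET proteins, TET1 59.3% and 58.8% of its family and KDM5C 45.9% and 47.5% of KDM5. The apparent dominance of H3F3B among the H3.3 genes (106 and 107) cannot be read as a choice, because 98.1% of the exon bases of H3F3A lie in a second model on the same strand and its reads were not assigned (3 and 0 counts). The same holds for the helicase EIF4A1, which lies entirely within a read-through model and had 0 counts, beside EIF4A2 with 173 and 172.

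**Figure D4:**
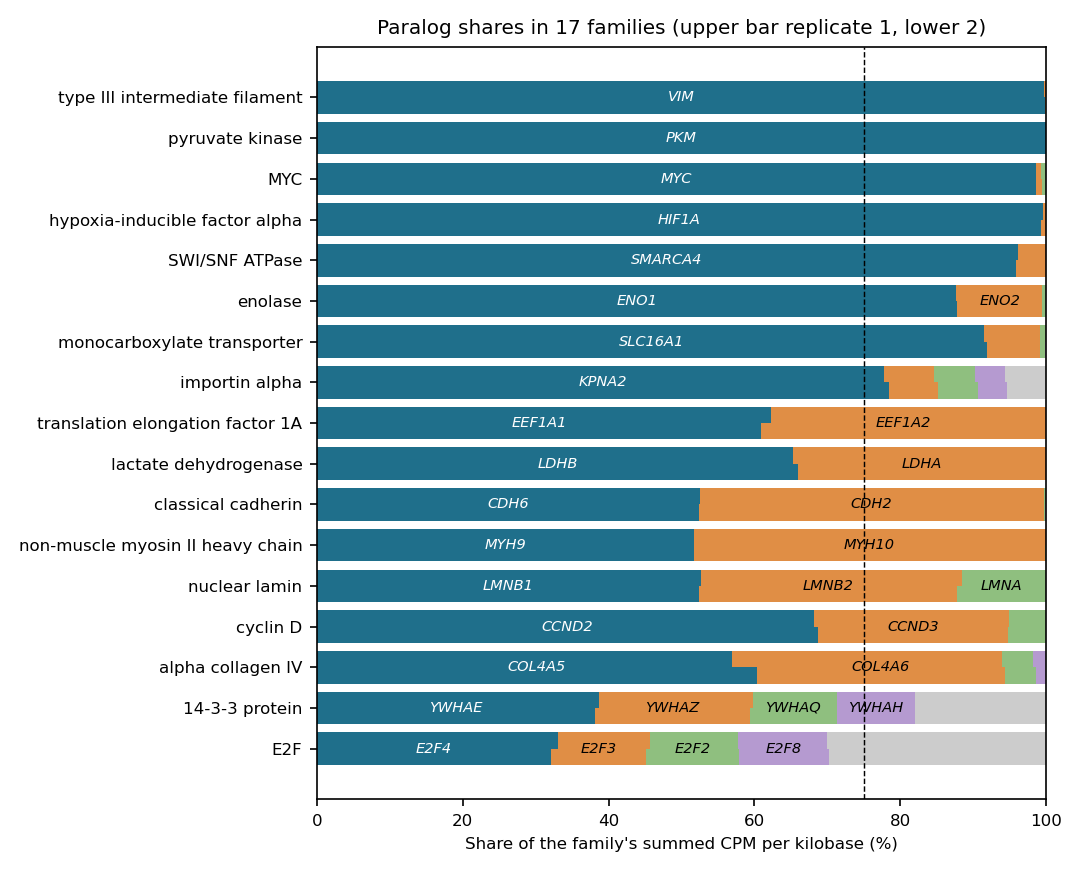
Share of each paralog in the summed CPM per kilobase of its family (x axis, percent) for 17 of the 152 families (y axis), with replicate 1 in the upper and replicate 2 in the lower part of each bar, the 4 highest members coloured and all others in grey; the dashed line marks 75%. MYC, PKM and SMARCA4 lie above the line, whereas MYH9 and MYH10, or CDH6 and CDH2, divide their families nearly evenly.

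Other families were shared. MYH9 and MYH10, the non-muscle myosins, had 125 and 127 and 117 and 118 CPM per kilobase, and the 3 voltage-dependent anion channels, the catalytic subunits of protein phosphatase 1 and the RAS genes each lay within 2-fold of each other; for PPP1CA and PPP1CC the order differed between the libraries. LMNB1 (152 and 154) and LMNB2 (103 and 104) were above LMNA (33.3 and 35.8), the lamin that stiff and differentiated tissues make most. EEF1A2, an elongation factor otherwise typical of neurons and muscle, reached 252 and 268 beside EEF1A1 with 416 and 417, of which 20.4% of the 50-base stretches are shared with other loci. Collagen IV came from COL4A5 (14.5 and 15.1) and COL4A6 (9.41 and 8.52), whereas the chains of most basement membranes, COL4A1 and COL4A2, had at most 0.00777. GPC3, an oncofetal glypican, led its family with 165 and 152. SALL2 and SALL3 could not be ordered (11.5 and 12.1, 11.5 and 11.5), but both were far above SALL4.

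Signalling families were expressed at intermediate to low levels. FGFR1 (41.9 and 41.8) and FGFR2 (27.8 and 29.2) led the FGF receptors, and PDGFRA held 93.9% and 92.8% of the PDGF receptor and KIT family. ERBB2 had 7.87 and 7.71 and EGFR 0.728 and 0.805. TGFB1 held 91.2% and 90.8% of the TGF-beta ligands with 26.7 and 25.2. NODAL, LEFTY2 and the Hedgehog ligands SHH, IHH and DHH were all below 0.1. Wnt ligands were low, with WNT10B highest at 2.98 and 2.70, although 9 Frizzled receptors were expressed.

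Across chromosomes, the median of expressed protein-coding gene models per autosome ran from 8.95 and 8.85 CPM per kilobase on chromosome 19 to 12.7 and 12.6 on chromosome 15. Chromosome 15 carries the segment that is duplicated in HAP1, and the part of copy number was not tested. On the X chromosome 392 of 817 were expressed (48.0%, against 58.3% on autosomes), and the median of the expressed ones was 13.2 and 13.1, against 10.9 and 10.9, a ratio of 1.21 and 1.20. Chromosome 21 had the lowest share of expressed gene models, 47.6%, and chromosome 14 the highest, 65.0%.

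Exon length differed with level. Protein-coding gene models at 100 CPM per kilobase or more had a median of 1816 exon bases, those at 10 to 100 had 3263, those at 1 to 10 had 3567, and those with 0 counts 1765. Division by length itself raises short gene models on this scale.

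Promoters, taken from RefSeq (GRCh38.p14) as 250 bases before and 50 after the first listed start, were available for 15206 protein-coding gene models. CpG dinucleotides, which methylation tends to erode outside active promoters, were counted over the number that base composition predicts. This ratio had a median of 0.26 for gene models with 0 counts, 0.57 above 0 and below 1 CPM per kilobase, 0.82 at 1 to 10, 0.88 at 10 to 100 and 0.91 at 100 or more. The GC content did not follow the same course, with medians of 52.0%, 61.0%, 66.0%, 65.7% and 63.3%. Lineage regulators showed the same order within themselves: 0.81 for the 55 expressed ones with a promoter, 0.74 for 61 below 1 and 0.49 for 25 with 0 counts. These are descriptions across genes, which are not independent replicates.

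Motifs were searched on both strands of the whole window as GGGCGG (GC box), CCAAT (CAAT box) and CCGGAAG (ETS type), the letters TATAA only on the gene's strand starting 40 to 20 bases before the start, and a start on C followed by at least 4 pyrimidines, as in genes with a 5' terminal oligopyrimidine tract. GGGCGG was found in 59.5% of all promoters, from 25.8% at 0 counts to 73.6% at 10 to 100 CPM per kilobase. CCGGAAG was found in 14.5% of all, from 3.74% at 0 counts to 24.7% at 10 to 100. TATAA in its window had a share of 5.62% over all and was most frequent at both ends, 13.6% at 0 counts and 13.5% at 100 or more, against 1.78% at 10 to 100. The pyrimidine start was found in 4.68% of all promoters and in 19% of those at 100 or more. It was in 38 of 54 promoters of ribosomal protein genes at that level (70.4%), and in 12% of the other 399.

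**Figure D5:**
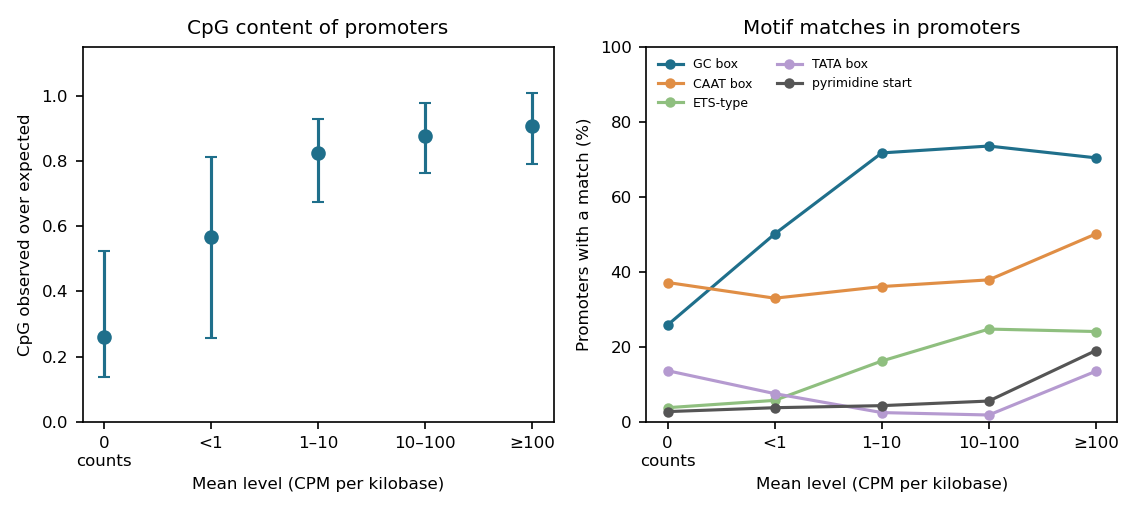
Left, CpG observed over expected in promoters (median, bars from the lower to the upper quartile); right, percent of promoters with a motif match; both by the mean level of the gene in 5 ranges of CPM per kilobase (x axis) from 0 counts to 100 or more. The CpG ratio goes from 0.26 to 0.91, and the TATA box is most frequent at both ends of the range.

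The windows of 5 genes are shown because they span these features: the highest ribosomal protein gene, the highest histone gene, the leading regulators SOX2 and OTX2, and NANOG, which was near zero. Capitals mark the motif matches named above, and the start site is base 251. The RPLP1 window (chr15:69452568-69452867, plus strand) has a CpG ratio of 0.98, 2 CAAT boxes, 1 GC box and a pyrimidine run of 11 bases at the start. HIST1H1E (chr6:26156079-26156378, plus strand) has a ratio of 1.06, 2 GC boxes, 1 CAAT box, 1 ETS-type match and a TATA box. SOX2 (chr3:181711675-181711974, plus strand) has a ratio of 0.67 with 1 CAAT box and 1 GC box, and OTX2 (chr14:56810430-56810729, minus strand) a ratio of 0.49 with 1 CAAT box. NANOG (chr12:7789152-7789451, plus strand) has a ratio of 0.32 and none of these letters in the places searched.
RPLP1: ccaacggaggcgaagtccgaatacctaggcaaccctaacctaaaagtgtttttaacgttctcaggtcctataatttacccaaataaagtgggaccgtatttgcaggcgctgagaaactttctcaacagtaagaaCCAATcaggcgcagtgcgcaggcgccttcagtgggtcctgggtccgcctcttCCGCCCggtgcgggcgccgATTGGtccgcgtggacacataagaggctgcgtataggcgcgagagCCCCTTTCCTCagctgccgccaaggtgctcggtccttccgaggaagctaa
HIST1H1E: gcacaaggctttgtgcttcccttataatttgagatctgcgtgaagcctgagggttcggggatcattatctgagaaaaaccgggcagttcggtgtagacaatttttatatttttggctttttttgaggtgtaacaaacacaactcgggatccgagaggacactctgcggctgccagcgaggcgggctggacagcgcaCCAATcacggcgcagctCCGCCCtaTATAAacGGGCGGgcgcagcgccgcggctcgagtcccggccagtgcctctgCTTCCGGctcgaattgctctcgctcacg
SOX2: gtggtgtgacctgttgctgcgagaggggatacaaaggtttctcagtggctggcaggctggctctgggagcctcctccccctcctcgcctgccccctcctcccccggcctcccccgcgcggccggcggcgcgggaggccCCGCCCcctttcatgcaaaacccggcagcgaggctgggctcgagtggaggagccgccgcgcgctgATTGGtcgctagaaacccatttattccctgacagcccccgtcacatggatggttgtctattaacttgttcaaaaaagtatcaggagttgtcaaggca
OTX2: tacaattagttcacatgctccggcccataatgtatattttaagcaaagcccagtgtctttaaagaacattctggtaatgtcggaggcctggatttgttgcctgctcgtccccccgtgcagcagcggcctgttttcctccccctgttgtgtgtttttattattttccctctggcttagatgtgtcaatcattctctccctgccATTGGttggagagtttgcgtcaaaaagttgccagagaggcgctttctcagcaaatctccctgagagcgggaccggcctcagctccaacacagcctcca
NANOG: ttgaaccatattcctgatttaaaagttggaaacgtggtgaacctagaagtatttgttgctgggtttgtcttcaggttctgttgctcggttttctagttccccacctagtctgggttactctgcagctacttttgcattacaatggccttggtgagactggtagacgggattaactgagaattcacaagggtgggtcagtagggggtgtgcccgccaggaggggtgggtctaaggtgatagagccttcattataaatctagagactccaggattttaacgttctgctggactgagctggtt

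Set against their levels, the windows of RPLP1 and HIST1H1E belong to genes at 2658 and 2728 and at 2060 and 1862 CPM per kilobase, that of SOX2 to one at 316 and 304, that of OTX2 to one at 80.5 and 83.0, and that of NANOG to one at 0.111 and 0.0926.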

How the data were processed

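RNA of HAP1 cells was sequenced in 9 libraries, of which the 2 of 1000 cells were used; the files of the other 7 were not used here. Adapters were removed from the 50-base read pairs (Trim Galore 0.6.7) before alignment to hg38 (HISAT2 2.2.1). The authors then counted reads on the reverse strand with featureCounts (Subread 2.0.6), and the deposited counts are whole numbers per gene model. Per the file headers single reads were counted, and reads that map to several places or lie in several gene models were dropped, so genes with near-identical copies or read-through models are too low. PCR copies were not marked by molecular identifiers, so floors cover counting error only. With totals of 42842970 and 61645865 counts, protein-coding gene models at 1 to 10 CPM per kilobase had a median of 693.5 counts in the library with fewer, but short gene models can pass with few: 12228 of the 12369 expressed ones had at least 10 counts in both libraries.

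Counts were divided by the library total (CPM) and by exon length. The deposited length sums copies on alternate contigs for 1205 gene models (up to 40.6 times), so the union of exons on the primary chromosome was used. Distant exons of a gene model on the same chromosome were still summed, as for U2AF1. Biotypes came from RefSeq by symbol (25320 of 26485 matched), and shared 50-base stretches from GENCODE transcripts. Genes were named by a rule: the highest by level, up to 4 of each class, the expressed and the defining silent members of each lineage and marker list, the highest members of families, and the PCR targets of the study. The rule covers every expressed lineage regulator; the text names the higher ones and gives the others by count. The members and lists were chosen with earlier results of these data known, and class patterns were refined after the files were seen. With 1 group, no test was run. The threshold calls were tested on simulated data: of 26485 gene models with known levels, 99.3% received the true call. These include the 7005 gene models with 0 counts in both libraries. Their simulated level was 0, so their call could not be wrong. The simulation drew counting noise only. In the data, 37.8% of gene models with at least 10 counts in both libraries together differed between the libraries beyond counting noise. The simulated share therefore does not measure how the calls hold under the real spread. The alternatives used TMM (edgeR 4.0.16), DESeq2 1.42.0 size factors and the settings of the closing section. Python 3.11 scripts made the rest.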

Additional observations from a re-analysis of the deposited data

How the results depend on the processing

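Normalisation by TMM or DESeq2 size factors, the removal of gene models under 10 counts and thinning of the larger library left the 7 summary results within the spread of the libraries or, for counts, within 1.5-fold. The shares of counts and the number of gene models with 0 counts do not use library sizes, so TMM and DESeq2 could not change them. The TMM factors were 1.0025 and 0.9975, which leaves little room for change in the other results. Without short structured RNAs the 100 highest gene models took 16.4% of the counts in place of 19%, and ribosomal proteins 4.14% in place of 3.97%; the removal of those RNAs from the total is the cause by construction. At a threshold of 5 CPM per kilobase 34 lineage regulators were expressed in place of 76, and at 90% of the family 20 families had a dominant paralog in place of 47, since both thresholds are stricter. With only 1 of the libraries, expressed gene models numbered 12620 to 12632 in place of 12369, expressed lineage regulators 78 to 79 and dominant paralogs 49 to 50. Of 81 single genes, 3 moved over 1.5-fold with the deposited length (POU5F1, MYT1 and LHX1; POU5F1 to 0.142 of its level), an alternative chosen after seeing the data, as were exon bases in no other model and families without members that lose reads; none of the 81 did under the other settings. Gene models with 0 counts could not be counted under the filter of 10 counts, which removes them. No paired analysis was possible because there is only 1 group and no result comes from a test.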
